A study of Saccharomyces cerevisiae with 9 samples.

Results

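The 60 genes described here are the large-subunit ribosomal protein genes RPL1A to RPL34B of Saccharomyces cerevisiae, chosen by their systematic names alone (for example YPL220W for RPL1A, YGL103W for RPL28 and YBR191W for RPL21A) and all found among the 7126 genic regions of the deposited table. They encode 34 proteins, 26 of them from a pair of copies named A and B and 8 from a single gene (RPL3, RPL5, RPL10, RPL25, RPL28, RPL29, RPL30 and RPL32). An intron interrupts 39 of the genes and 21 have none.

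Poly-A RNA was measured in diploid W303 cells that lack one of the genes for S-adenosylmethionine (AdoMet) synthetase, SAM1 or SAM2, and in the wildtype diploid, with 3 libraries per strain. The sam1Δ/sam1Δ strain carries sam1::KANMX on both homologs and was grown in synthetic complete (SC) medium with G418, the sam2Δ/sam2Δ strain carries sam2::LEU2 on both and was grown in SC without leucine, and the wildtype was grown in SC, so in these comparisons strain and medium cannot be told apart. All cultures grew at 30 °C to an OD600 between 0.5 and 0.6, and all strains, wildtype included, are homozygous for mutations in LEU2, HIS3, TRP1, URA3 and ADE2, heterozygous for mutations in LYS2 and CAN1, and carry a chromosome fragment with TRP1 and SUP11. The labels give 3 samples per strain without saying whether each came from its own culture, so P-values measure the spread between these samples, which may be technical.

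The large subunit of the ribosome holds the peptidyl transferase centre, and most of its proteins bind ribosomal RNA during assembly in the nucleolus. In budding yeast the genes for these proteins are among the most transcribed, many are kept as a pair of copies, and they are known to be transcribed together, rising with fast growth and falling under stress. AdoMet is the methyl donor for enzymes that methylate Rpl1, Rpl3, Rpl12 and Rpl23 among others. What was compared here is whether the RNA of these genes differed in cells with either synthetase gene deleted.

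The values are a normalized signal per gene, scaled between libraries by the study's processing and not divided by gene length. The 9 libraries summed to 9.38 to 11.9 M, from about 4.90 to 23.8 M reads as judged from the smallest step between values. The deleted genes matched the labels. SAM1 had 1.06, 1.77 and 0 in sam1Δ/sam1Δ, against 17140, 6030 and 4589 in wildtype, and SAM2 had 2.43, 4.36 and 6.89 in sam2Δ/sam2Δ, against 39411, 17280 and 19627 in wildtype. Replicate 3 of sam2Δ/sam2Δ stood apart in 9 mating-pathway genes, which summed to 1963 there and to between 566 and 714 in every other library.

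The main feature of the 60 genes was a shared rise and fall between libraries of 1 strain. The median gene of the set, relative to its own mean over the 9 libraries on the log2 scale, stood at -0.32, 0.22 and 0.12 in sam1Δ/sam1Δ, at -0.36, 0.08 and -0.22 in sam2Δ/sam2Δ, and at 0.67, -0.25 and 0.05 in wildtype. Wildtype replicate 1 was the highest of the 3 wildtype libraries for 58 of the 60 genes and the highest of all 9 for 55. Replicate 1 was the lowest of the 3 sam1Δ/sam1Δ libraries for 58 genes. The 57 small-subunit protein genes moved with them, with medians of -0.33, 0.19 and 0.16 in sam1Δ/sam1Δ, of -0.41, 0.11 and -0.24 in sam2Δ/sam2Δ, and of 0.66, -0.21 and 0.08 in wildtype.

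Another pair of lists differed between the same libraries, and by more. The 48 large-subunit assembly factor genes stood at -0.75, 0.68 and 0.52 in sam1Δ/sam1Δ, at -1.03, -0.37 and 0.70 in sam2Δ/sam2Δ, and at 1.40, -0.64 and -0.40 in wildtype. The 30 general stress genes ran the other way, at 0.51, -0.61 and -0.44 in sam1Δ/sam1Δ, at 0.67, 0.30 and -0.31 in sam2Δ/sam2Δ, and at -1.26, 0.76 and 0.37 in wildtype. The median of all genes lay within 0.01 of 0 in 8 libraries and at 0.012 in the other. The labels give the same OD600 range for every library, and the part of these list differences in the results below was not tested.

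**Figure D1:**
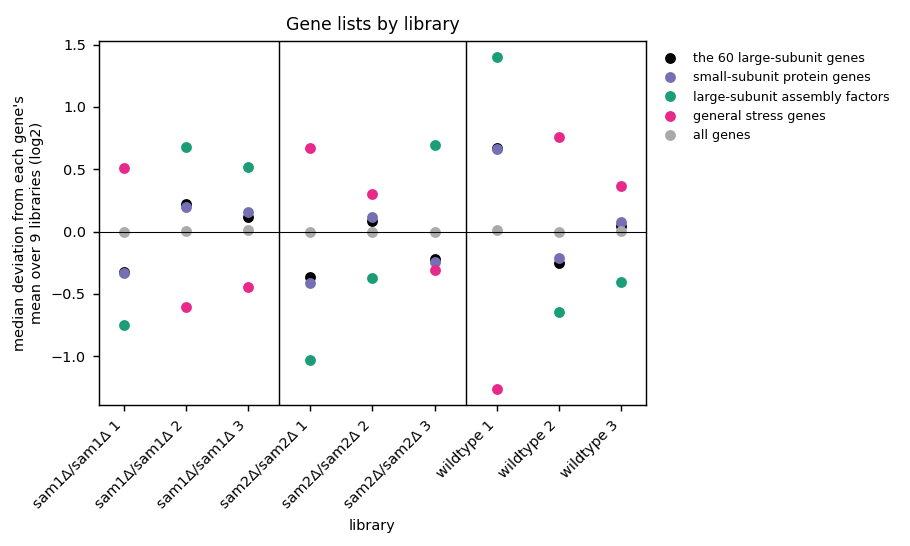
Median deviation of each gene list from its genes' own means over the 9 libraries (vertical axis, log2) in each library (horizontal axis, grouped by strain). The 60 large-subunit genes (black) and the small-subunit genes (violet) sit together in every library, from -0.41 to 0.67, while assembly factors (green) reach 1.40 and stress genes (pink) -1.26 in wildtype replicate 1.

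The genes made up 2.76, 4.0005 and 3.80% of the library signal in sam1Δ/sam1Δ, 2.85, 3.91 and 3.40% in sam2Δ/sam2Δ, against 4.96, 2.90 and 3.59% in wildtype. Both mutants' values lay inside the wildtype range except for sam1Δ/sam1Δ replicate 1 and sam2Δ/sam2Δ replicate 1, which were just below it. The mean share was 3.52% ± 0.66 in sam1Δ/sam1Δ, 3.39% ± 0.53 in sam2Δ/sam2Δ and 3.82% ± 1.05 in wildtype (SD, n = 3 each), so the strain means differed by less than the spread of the wildtype libraries.

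Members did not follow the shared movement equally. Over the 9 libraries the highest value of a gene was 1.43 to 4.78 times its lowest, with a median of 2.29. RPL8A, whose protein joins early in assembly, moved most: it had 2034, 5493 and 5313 in sam1Δ/sam1Δ, 2172, 3003 and 3699 in sam2Δ/sam2Δ, against 9731, 2212 and 2735 in wildtype, so wildtype replicate 1 stood 3.93-fold above the mean of the other 2 wildtype libraries. RPL7B, RPL6B and RPL33B followed, at 2.83-, 2.63- and 2.39-fold.

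At the other end, RPL9B, with 3291, 3794 and 4073 in sam1Δ/sam1Δ, 3319, 3737 and 3678 in sam2Δ/sam2Δ, against 4692, 3850 and 3820 in wildtype, varied 1.43-fold over all 9. RPL18B (YNL301C) did not rise in wildtype replicate 1 at all: it had 552, 717 and 717 in sam1Δ/sam1Δ, 700.2, 1034 and 505 in sam2Δ/sam2Δ, against 765, 848 and 789.8 in wildtype. Among pairs, the copy with the lower wildtype signal moved more, with a median ratio of wildtype replicate 1 to its fellow libraries of 1.81 for the 26 lower copies, 1.63 for the 26 higher copies and 1.504 for the 8 single-copy genes. These became 1.84, 1.61 and 1.46 when the signal of loci shared with another region was summed, which makes RPL22A and RPL33A the higher copies of their pairs. Genes with and without an intron had the same median ratio, 1.71.

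**Figure D2:**
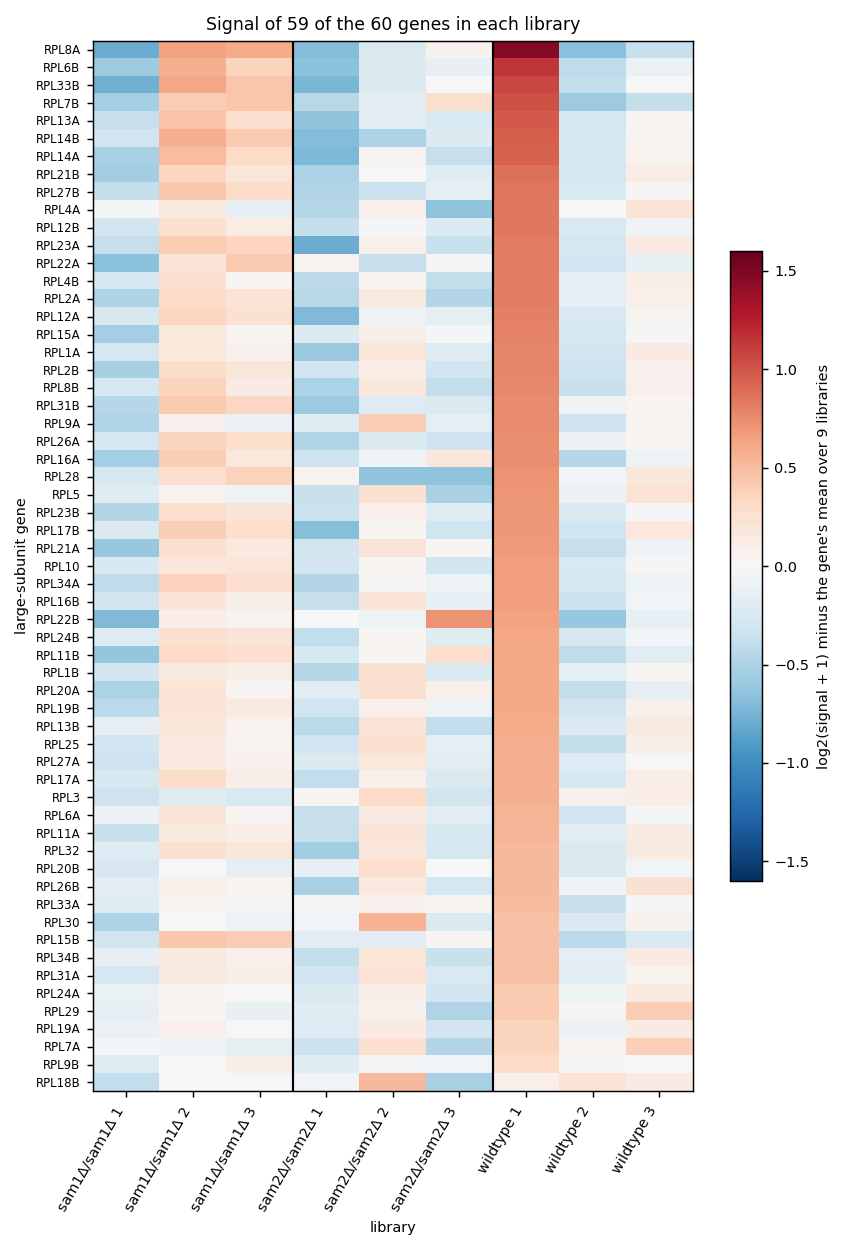
Of the 60 genes, 59 (rows, ordered by wildtype replicate 1) in each library (columns), coloured by log2(signal + 1) minus the gene's mean over the 9 libraries. The wildtype replicate 1 column is red from RPL8A at the top to RPL9B, and near 0 only for RPL18B at the bottom.

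Levels per coding length spanned a wide range. RPL3 (YOR063W, chrXV:444686-445849), whose protein reaches the peptidyl transferase centre, was highest in sam2Δ/sam2Δ and wildtype as listed, at 28015 ± 1300.2 signal per kilobase of coding sequence in sam1Δ/sam1Δ, 34251 ± 6841 in sam2Δ/sam2Δ and 40280.1 ± 8021 in wildtype (SD, n = 3 each). In sam1Δ/sam1Δ it lay below RPL32 with 33459, RPL31A with 29330.5 and RPL25 with 28698 per kilobase. In wildtype, RPL32 with 35561, RPL25 with 32506, RPL31A with 32147 and RPL30 with 26169 per kilobase came next, within 1 SD of their neighbours in that order. Rpl25 and Rpl31 sit at the exit of the tunnel for the nascent chain, and Rpl30 is known to repress splicing of its own transcript. The median gene had 11051 per kilobase in wildtype, and single-copy genes had a median of 25240 against 15824 for the higher and 7213 for the lower copies of pairs. This order of genes holds for the signal as listed for each gene. With the signal of shared loci summed, RPL10 came first in wildtype, at 45302 ± 15604 per kilobase, RPL28 stood at 32423 ± 7429.8, and the class medians were 32464 for single-copy genes, 16118 for higher copies and 8326 for lower copies.

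The 5 lowest genes per kilobase in wildtype were RPL22A with 82.2, RPL33A with 823, RPL7B with 938, RPL22B with 1088 and RPL15B with 1321, followed by RPL28 with 1389. For RPL22A, RPL33A and RPL28 these low values came with a second open reading frame listed at the same locus and on the other strand. In all, 11 of the 60 genes share their locus in the table with another genic region (49 are alone), and how reads were divided between overlapping regions, or whether strand was used, is not given in the sources used here.

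RPL28 (chrVII:310967-311927) had 412, 603 and 644 in sam1Δ/sam1Δ, 521, 320.1 and 321 in sam2Δ/sam2Δ, against 822, 485 and 569 in wildtype, while the overlapping frame YGL102C had 10842, 12599 and 11979 in sam1Δ/sam1Δ, 11626, 13916 and 9647 in sam2Δ/sam2Δ, against 17377, 11112 and 13408 in wildtype. RPL28 encodes the protein altered in cycloheximide-resistant cyh2 mutants, and it held 2.25 to 5.11% of its locus. RPL22A held 0.527 to 0.986% of a locus shared with YLR062C, and RPL33A 3.11 to 4.67% of one shared with YPL142C. RPL10, RPL8B and RPL12A were divided more evenly, with 36.3 to 43.8%, 46.0 to 54.3% and 52.7 to 60.1% of their loci, and RPL7B held 56.1 to 64.8%. RPL7A, RPL12B, RPL13B and RPL21A held over 99% of theirs.

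**Figure D3:**
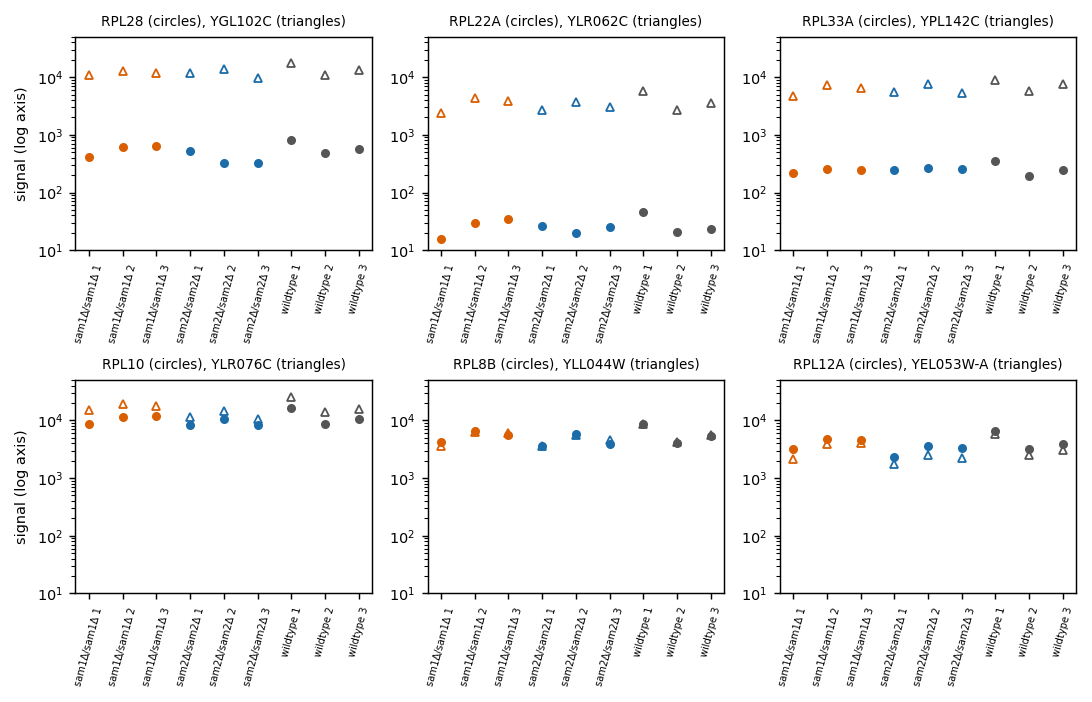
Signal (log axis) of 6 large-subunit genes (filled circles) and of the overlapping region listed at the same locus (open triangles) in each of the 9 libraries, with sam1Δ/sam1Δ in orange, sam2Δ/sam2Δ in blue and wildtype in grey. RPL28, RPL22A and RPL33A lie more than 10-fold below their partners in every library, RPL10 lies below its partner by less, and RPL8B and RPL12A lie close to theirs.

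Differences were tested with limma on log2(signal + 1), and a gene was called where its unadjusted P was 0.05 or less and its log2 fold change (log2FC) was 0.58 or more in size. In sam1Δ/sam1Δ over wildtype none of the 60 genes met both cutoffs. The background was 1.15% of the 6109 genes tested. No member had an unadjusted P of at most 0.05 with limma, nor with limma-voom on reads, and the lowest adjusted P was 1.00. In 2 other limma fits, RPL7A and RPL29 had such a P without meeting the fold limit. These were the fit with no filter, beside 217 of 7126 genes, and that without wildtype replicate 2, beside 92 of 6088. The log2FC was below 0 for 57 of the 60 genes, beside 52.8% of all genes tested, with a median of -0.14 against -0.01 over all genes. The median turned to 0.12, with 15 genes below 0, once wildtype replicate 1 was left out, and to 0.05 without sam1Δ/sam1Δ replicate 1.

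RPL3 had the largest difference in sam1Δ/sam1Δ. Its signal was 31008, 34016 and 32806 in sam1Δ/sam1Δ, against 57650.4, 40984 and 42024 in wildtype, a log2FC of -0.51 ± 0.24 (SE) with an adjusted P of 1.00 by limma, so the groups did not overlap while the test was not passed. RPL29, RPL4A and RPL5 followed, at log2FC of -0.35 each, and Rpl5 binds the 5S ribosomal RNA. RPL7A had 4798, 4645 and 4375 in sam1Δ/sam1Δ, against 6252, 5038 and 6353 in wildtype, a log2FC of -0.35 ± 0.16. With RPL18B, RPL3 and RPL7A were the only members whose sam1Δ/sam1Δ and wildtype libraries did not overlap, 3 of 60 beside 6.53% of all genes tested.

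Only 3 members had a log2FC above 0 in sam1Δ/sam1Δ, and all were the lower copies of their pairs: RPL15B at 0.23 ± 0.32, RPL7B at 0.08 ± 0.49 and RPL8A at 0.0039 ± 0.67. RPL15B (YMR121C) had 654, 1099 and 1087 in sam1Δ/sam1Δ, against 1135, 609.7 and 693 in wildtype.

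Between sam2Δ/sam2Δ and wildtype 1 of the 60 genes met both cutoffs, RPL28, which was lower in sam2Δ/sam2Δ. The background was 9.85% of the 6099 genes tested, and 4.85% counting only those lower in sam2Δ/sam2Δ, so the members' 1 in 60 lay below it. RPL28 averaged 387 ± 116 in sam2Δ/sam2Δ and 625 ± 175 in wildtype (SD, n = 3 each), a log2FC of -0.69 ± 0.29 with adjusted P = 0.372 by limma, and its groups overlapped at sam2Δ/sam2Δ replicate 1. The call was lost in 8 other fits, among them those that left out wildtype replicate 1 (-0.48), wildtype replicate 3 (-0.74), sam2Δ/sam2Δ replicate 2 (-0.58) or sam2Δ/sam2Δ replicate 3 (-0.58). When all signal of its locus was summed, the level was 12147, 14236 and 9968 in sam2Δ/sam2Δ, against 18198, 11596 and 13976 in wildtype, with a log2FC of -0.26 ± 0.29 and adjusted P = 0.739.

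The log2FC was below 0 for 58 of the 60 genes in sam2Δ/sam2Δ, beside 50.7% of all genes tested, with a median of -0.32 against -0.01 over all genes. It was -0.29 without sam2Δ/sam2Δ replicate 3 and -0.09, with 39 genes below 0, without wildtype replicate 1. With values scaled to library totals the median of all genes moved to 0.15 and that of the members to -0.16, 48 of them below 0. That scaling also changed the split of calls over all genes, to 545 higher and 181 lower in sam2Δ/sam2Δ, against 305 higher and 296 lower as deposited. For sam1Δ/sam1Δ it gave 64 higher and 26 lower, against 38 and 32 as deposited, and for sam2Δ/sam2Δ over sam1Δ/sam1Δ 399 higher and 251 lower, against 315 and 310 as deposited.

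**Figure D4:**
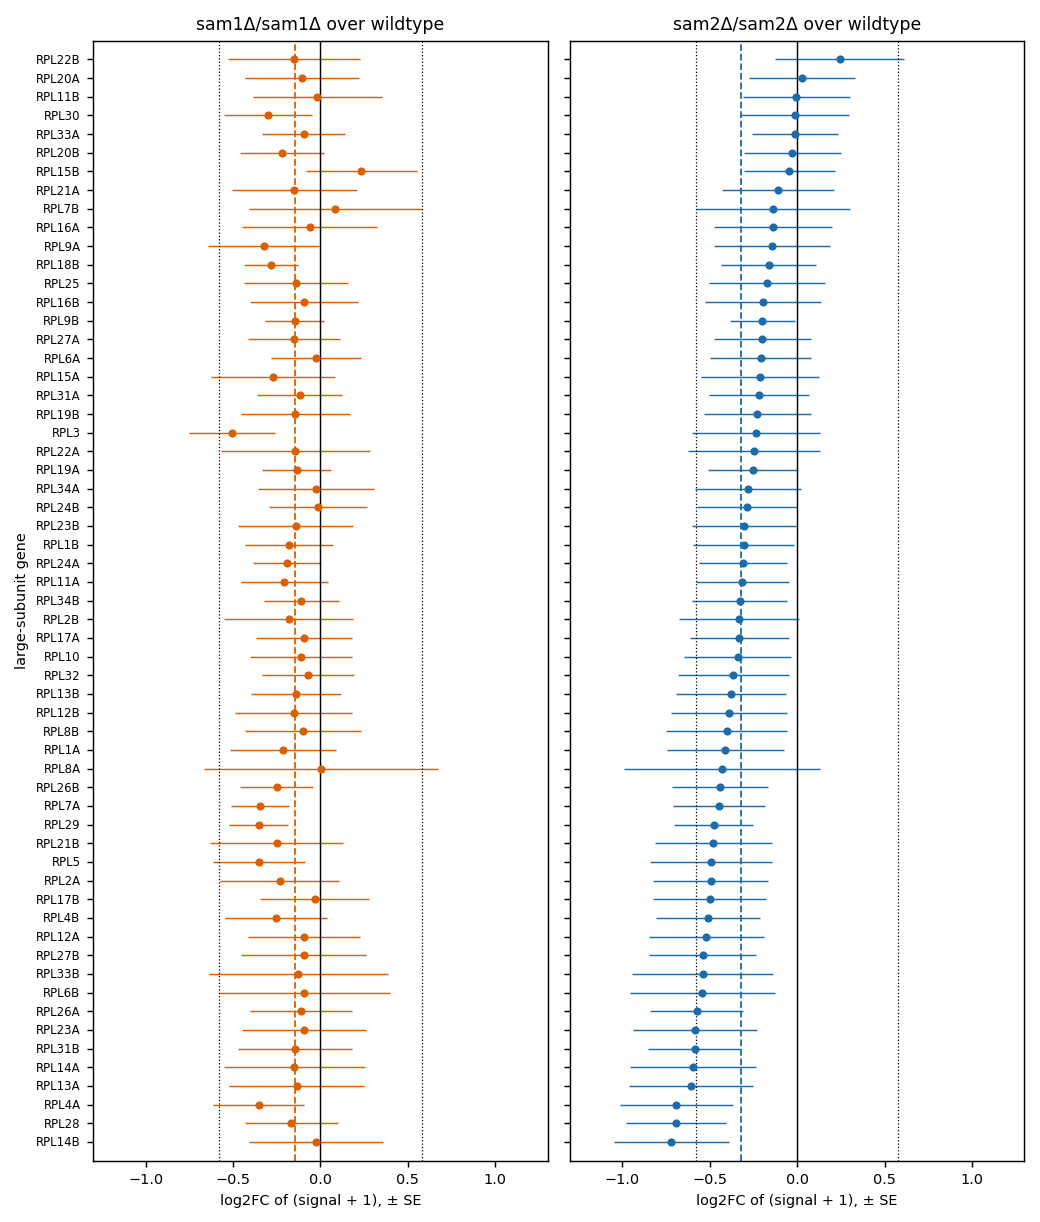
The log2FC of 59 of the 60 genes (rows) in sam1Δ/sam1Δ (left) and sam2Δ/sam2Δ (right) over wildtype, with its SE, the median of all 60 (dashed) and the 0.58 limits (dotted). Nearly all points lie left of 0 in both panels, with medians of -0.14 and -0.32, and most SE bars cross 0 in sam1Δ/sam1Δ.

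Besides RPL28, 6 members passed the fold limit in sam2Δ/sam2Δ without an unadjusted limma P of at most 0.05, each lower. How many of all genes passed that limit alone is not given here, so this count is descriptive only. RPL14B (YHL001W) had 978, 1122 and 1354 in sam2Δ/sam2Δ, against 3057, 1327 and 1632 in wildtype, a log2FC of -0.72 ± 0.33 with adjusted P = 0.414 by limma. Its sam2Δ/sam2Δ libraries all lay below 2 of the wildtype libraries and overlapped the third. RPL4A, whose protein lines the exit tunnel, had 5988, 8659 and 5244 in sam2Δ/sam2Δ, against 14741, 8202 and 9465 in wildtype, a log2FC of -0.69 ± 0.32. RPL13A at -0.61, RPL14A at -0.59, RPL31B at -0.59 and RPL23A at -0.58 made up the rest.

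RPL31B, RPL26A and RPL9B were the members whose sam2Δ/sam2Δ and wildtype libraries did not overlap, 3 of 60 beside 22.3% of all genes tested. RPL31B had 1357, 1757 and 1727 in sam2Δ/sam2Δ, against 3437, 1953 and 2072 in wildtype, and RPL26A had 2733, 3282 and 3046 in sam2Δ/sam2Δ, against 6393, 3576 and 3945 in wildtype. In both genes every mutant library was the lower, and the distance from the nearest wildtype library was small beside that of wildtype replicate 1 from its fellows.

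RPL22B and RPL20A were the only members above 0 in sam2Δ/sam2Δ, with a log2FC of 0.24 ± 0.37 and 0.028 ± 0.31. Rpl22 is known to inhibit splicing of RPL22B transcripts. RPL22B had 387, 362 and 630.1 in sam2Δ/sam2Δ, against 601, 251 and 352 in wildtype. Without sam2Δ/sam2Δ replicate 3, the library that stood apart in the sum of mating-pathway genes, its log2FC was -0.0070.

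Summing the listed signal of the copies gave 1 value for each of the 34 proteins. Signal listed under a region overlapping a gene was left out of these sums. RPL28 held 2.25 to 5.11% of its locus, RPL22A 0.527 to 0.986% and RPL33A 3.11 to 4.67%. With all signal of its locus summed, RPL28 had a log2FC of -0.26 ± 0.29 in sam2Δ/sam2Δ over wildtype and was not called. None of the 34 sums was called in sam1Δ/sam1Δ and 1, the single-copy RPL28, in sam2Δ/sam2Δ. Among all genes tested singly, 1.15% and 9.85% were called in these comparisons. The median log2FC of the sums was -0.14 and -0.32. Of those from pairs, RPL4 had the lowest log2FC in sam2Δ/sam2Δ (-0.64) and RPL22 the highest (0.22).

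Between the mutants, none of the 60 genes met both cutoffs in sam2Δ/sam2Δ over sam1Δ/sam1Δ, where the background was 10.2% of 6139 genes, and with limma none had an unadjusted P of at most 0.05. None had groups that did not overlap, beside 25.4% of all genes tested. The median log2FC was -0.19, against -0.01 over all genes, and 48 members were below 0, beside 51.2% of all genes tested. RPL14B had the lowest value, -0.69 ± 0.34 with adjusted P = 0.357 by limma, followed by RPL28 at -0.53, RPL23A at -0.49, and RPL13A and RPL17B at -0.47 each. RPL22B had the highest, 0.39 ± 0.37, before RPL30 at 0.29, RPL3 at 0.27 and RPL20B at 0.19. Its place rested on single libraries, since its log2FC was 0.14 without sam2Δ/sam2Δ replicate 3 and 0.13 without sam1Δ/sam1Δ replicate 1, and it was then no longer the highest. RPL14B, RPL26A, RPL28 and RPL31B met both cutoffs once sam1Δ/sam1Δ replicate 1 was left out, beside 812 of all 6128 genes tested in that fit.

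The 7 genes of proteins that are methylated, RPL1A, RPL1B, RPL3, RPL12A, RPL12B, RPL23A and RPL23B, did not meet the cutoffs in any comparison. Their log2FC ran from -0.51 to -0.09 in sam1Δ/sam1Δ and from -0.58 to -0.24 in sam2Δ/sam2Δ over wildtype. RPL23A, the lowest of them in sam2Δ/sam2Δ, had 2058, 3796 and 2804 there, against 6378, 2941 and 3923 in wildtype, and the groups overlapped. Of the 8 methyltransferase genes for large-subunit proteins, none was called in sam1Δ/sam1Δ over wildtype (background 1.15%), and 2 were in sam2Δ/sam2Δ over wildtype (background 9.85%). RKM4, which methylates Rpl42, had 659, 462 and 688 in sam2Δ/sam2Δ, against 452, 312 and 268 in wildtype, a log2FC of 0.82 ± 0.26 with adjusted P = 0.282 by limma. TAE1, which methylates the amino terminus of Rpl12, had 225, 279 and 266 in sam2Δ/sam2Δ, against 909, 371 and 438 in wildtype, a log2FC of -1.05 ± 0.34 with adjusted P = 0.287. In neither gene did the groups overlap. Both also met the cutoffs in sam2Δ/sam2Δ over sam1Δ/sam1Δ (background 10.2%), at 0.82 ± 0.23 for RKM4 and -0.98 ± 0.33 for TAE1. Over wildtype RKM4 lost its call on leaving out any of 4 libraries, which were wildtype replicates 2 (0.77) and 3 (0.66) and sam2Δ/sam2Δ replicates 1 (0.75) and 3 (0.72), and TAE1 without sam2Δ/sam2Δ replicate 1 (-0.96). Over sam1Δ/sam1Δ RKM4 kept its call in every refit at these cutoffs, while TAE1 lost it without sam1Δ/sam1Δ replicate 2 (-0.80) or sam2Δ/sam2Δ replicate 1 (-0.88).

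None of the 48 assembly factors tested and none of the 28 regulators of ribosomal protein genes was called in any comparison. The assembly factors had a median log2FC of -0.33 in sam2Δ/sam2Δ and of 0.03 in sam1Δ/sam1Δ over wildtype. For the lists in this paragraph, the background was 1.15% in sam1Δ/sam1Δ and 9.85% in sam2Δ/sam2Δ over wildtype, and 10.2% between the mutants. Among 57 small-subunit genes, RPS28A was called, lower, in sam2Δ/sam2Δ over wildtype (-0.58) and RPS10B, higher, in sam2Δ/sam2Δ over sam1Δ/sam1Δ (0.59), and their medians were -0.17 in sam1Δ/sam1Δ and -0.36 in sam2Δ/sam2Δ. Of 20 other large-subunit genes tested, RPL41B was called, lower, in sam1Δ/sam1Δ over wildtype, at means of 9.32 and 17.5, near the filter on low signal, and RPP2B, of the ribosomal stalk, was called, lower, in sam2Δ/sam2Δ over sam1Δ/sam1Δ (-0.68). Of the 30 stress genes CTT1, the cytosolic catalase, was called, higher, in sam2Δ/sam2Δ over sam1Δ/sam1Δ (0.69). Of these 5 genes only CTT1 kept its call in all refits at these cutoffs. RPS28A lost it in 9, RPP2B in 8, RPL41B in 5 and RPS10B in 3, and without sam2Δ/sam2Δ replicate 3 RPS28A and RPP2B were not called.

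Of 16 chaperone genes 2 were called in sam2Δ/sam2Δ over wildtype, EGD1 and EGD2, both lower, beside a background of 9.85%, and none in sam1Δ/sam1Δ (1.15%). They encode subunits of the nascent polypeptide-associated complex, which docks at the tunnel exit. EGD1 had 2267, 3225 and 2005 in sam2Δ/sam2Δ, against 4667, 3858 and 4131 in wildtype, a log2FC of -0.78 ± 0.23 with adjusted P = 0.266 by limma. EGD2 had 2893, 4258 and 2777 in sam2Δ/sam2Δ, against 6300.2, 4321 and 5478 in wildtype, a log2FC of -0.71 ± 0.26 with adjusted P = 0.320. Neither gene's groups overlapped. Both were also lower and called in sam2Δ/sam2Δ over sam1Δ/sam1Δ (background 10.2%), at -0.68 ± 0.20 and -0.59 ± 0.22. The EGD2 call was lost in 7 refits in each comparison, among them scaling to library totals (-0.55 over wildtype and -0.53 over sam1Δ/sam1Δ), voom (-0.65 and -0.54), and leaving out sam2Δ/sam2Δ replicate 1 (-0.62 and -0.51) or 3 (-0.60 and -0.48), wildtype replicate 1 (-0.58) or 3 (-0.68), or sam1Δ/sam1Δ replicate 2 (-0.51) or 3 (-0.59). EGD1 lost its call over wildtype with the replicate block alone, and over sam1Δ/sam1Δ without sam2Δ/sam2Δ replicate 3 alone (-0.53).

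The balance of the copies of a pair is a ratio within a library, so it takes no part in the shared movement where both copies move alike. The SD of the log2 ratio of the A to the B copy within a strain had a median of 0.17 in wildtype over the 26 pairs, against 0.48 for the log2 level of the 60 genes, and these medians were closer in sam1Δ/sam1Δ, at 0.19 and 0.28, and in sam2Δ/sam2Δ, at 0.22 and 0.28. How far a 75-base read can tell copies apart depends on their sequence. No 75-base window of the coding sequence occurred elsewhere in the genome for 32 of the 60 genes, while for RPL1A and RPL1B 71.6% did, and over 50% for RPL4A, RPL4B, RPL11A and RPL11B.

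To show what a single read can see, the read-length windows below were taken from the RefSeq R64 genome, with bases that differ between copies in capitals. For RPL21, the window where the copies are most alike still differs at 1 base, and the median window of 398 differs at 4. For RPL1, the window where they differ most does so at 2 bases, and the median window at 0.
RPL21A, chrII:606745-606819, plus strand: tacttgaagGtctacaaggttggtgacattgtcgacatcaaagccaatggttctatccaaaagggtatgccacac
RPL21B, chrXVI:407144-407218, plus strand: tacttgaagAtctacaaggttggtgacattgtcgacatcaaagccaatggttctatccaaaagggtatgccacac
RPL1A, chrXVI:135790-135864, plus strand: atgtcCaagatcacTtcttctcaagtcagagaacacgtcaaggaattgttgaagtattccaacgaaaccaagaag
RPL1B, chrVII:254641-254715, plus strand: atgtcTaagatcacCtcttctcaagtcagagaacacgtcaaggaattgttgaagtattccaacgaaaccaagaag

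RPL21 was the pair whose balance was tightest within strains and apart between them. The log2 ratio of RPL21A (chrII:606270-607140) to RPL21B (YPL079W, chrXVI:406636-407539) was 0.23, 0.18 and 0.23 in sam1Δ/sam1Δ, 0.48, 0.48 and 0.49 in sam2Δ/sam2Δ, against 0.06, 0.18 and 0.10 in wildtype. Every sam2Δ/sam2Δ library lay above every wildtype and every sam1Δ/sam1Δ library. The mean was 0.48 ± 0.01 in sam2Δ/sam2Δ and 0.11 ± 0.06 in wildtype (SD, n = 3 each), a difference of 0.37, with an exact permutation P of 0.1 (two-sided), the smallest that 3 against 3 libraries can give. The copies themselves overlapped between strains: RPL21A had 5080.1, 7187 and 6345 in sam2Δ/sam2Δ, against 9983, 4850 and 6014 in wildtype, and RPL21B had 3651, 5157 and 4518 in sam2Δ/sam2Δ, against 9574, 4293 and 5610.2 in wildtype. The pair was picked for this pattern after its values were seen.

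RPL21 was the only pair of 26 (3.85%) whose ratio did not overlap between sam2Δ/sam2Δ and wildtype, beside 5 of 24 small-subunit pairs (20.8%). Between sam1Δ/sam1Δ and wildtype 3 large-subunit pairs did not overlap, RPL14, RPL15 and RPL21, beside 0 of the small-subunit pairs (0.0%). Between sam2Δ/sam2Δ and sam1Δ/sam1Δ 5 pairs did not, among them RPL15, RPL17, RPL21 and RPL23, beside 16.7% of the small-subunit pairs.

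RPL15 was the pair furthest from wildtype in sam1Δ/sam1Δ. The log2 ratio of RPL15A (YLR029C, chrXII:201976-202590) to RPL15B (chrXIII:509734-510348) was 3.67, 3.64 and 3.53 in sam1Δ/sam1Δ, 3.86, 4.17 and 3.82 in sam2Δ/sam2Δ, against 4.21, 4.03 and 4.11 in wildtype. All sam1Δ/sam1Δ libraries were the lowest of the 9, at a mean of 3.61 ± 0.07 against 4.12 ± 0.09 in wildtype (SD, n = 3 each), while sam2Δ/sam2Δ overlapped wildtype. RPL15A had 8329, 13694 and 12563 in sam1Δ/sam1Δ, against 21075, 9983 and 11978 in wildtype. Of the 75-base windows of these copies, 7.76% occur elsewhere in the genome.

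RPL14 differed little, with a mean log2 ratio of 0.73 ± 0.07 in sam1Δ/sam1Δ and 0.86 ± 0.02 in wildtype. RPL23, which encodes a methylated protein of the subunit interface, had ratios of -1.13, -0.67 and -0.83 in sam2Δ/sam2Δ, all below the -0.58, -0.55 and -0.53 of sam1Δ/sam1Δ, while the -0.54, -0.73 and -0.52 of wildtype overlapped sam2Δ/sam2Δ.

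In other pairs the balance moved with the library and not with the strain. The log2 ratio of RPL8A to RPL8B was -1.04, -0.26 and -0.07 in sam1Δ/sam1Δ, -0.72, -0.95 and -0.08 in sam2Δ/sam2Δ, against 0.16, -0.85 and -0.99 in wildtype. The ratio of RPL7A to RPL7B was 3.55, 2.55 and 2.43 in sam1Δ/sam1Δ, 3.12, 3.48 and 2.30 in sam2Δ/sam2Δ, against 2.37, 3.66 and 3.80 in wildtype. In both pairs the libraries sam1Δ/sam1Δ replicates 2 and 3, sam2Δ/sam2Δ replicate 3 and wildtype replicate 1 stood on one side and the other 5 on the opposite side. These 4 libraries were also those in which the assembly factor list was above 0 and the stress list below 0, and they had 12.2 to 23.8 M reads, against 4.90 to 18.2 M in the other 5. The part of depth or of those lists in the balance was not tested.

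**Figure D5:**
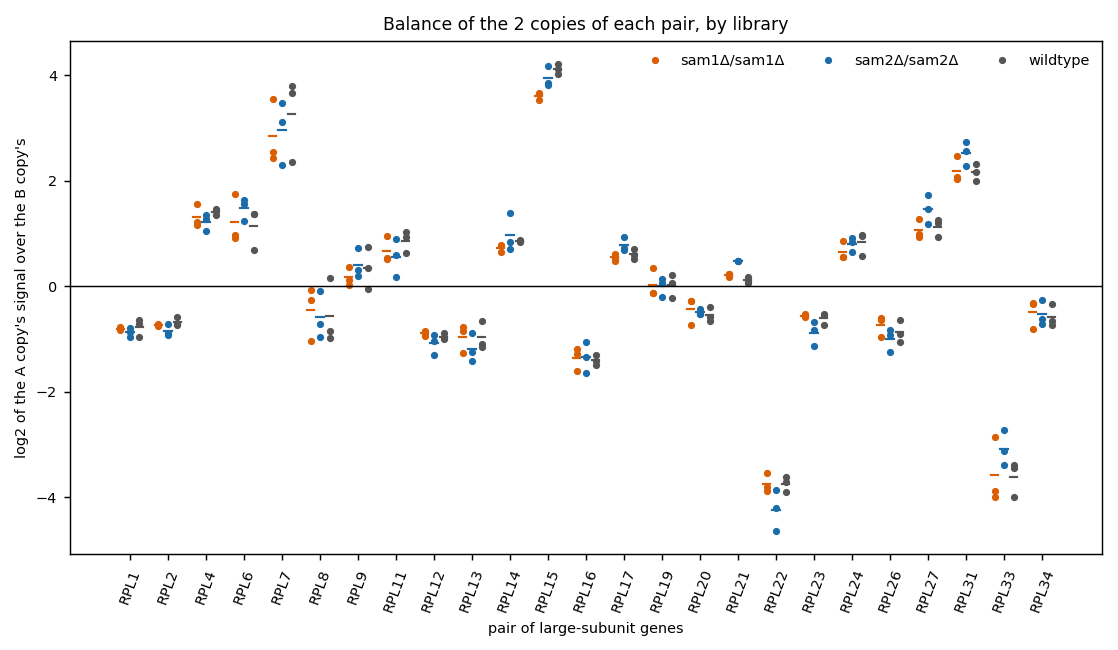
The log2 ratio of the A to the B copy (vertical axis) for 25 of the 26 pairs (horizontal axis), with 1 point per library and a bar at each strain's mean, sam1Δ/sam1Δ in orange, sam2Δ/sam2Δ in blue and wildtype in grey. RPL21 in sam2Δ/sam2Δ (0.48 to 0.49) and RPL15 in sam1Δ/sam1Δ (3.53 to 3.67) lie apart from wildtype, while RPL7 and RPL8 spread widely in all strains.

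Among the most unequal pairs in wildtype were RPL15 at a mean log2 ratio of 4.12, RPL22 at -3.74, RPL33 at -3.61 and RPL7 at 3.27. For RPL22 and RPL33 the direction rested on the shared loci: with all signal of each locus summed, the ratio in wildtype was 3.36 for RPL22 and 1.27 for RPL33, so that the A copy was the higher. RPL22 had ratios of -3.86, -4.21 and -4.64 in sam2Δ/sam2Δ, against -3.70, -3.61 and -3.90 in wildtype, a difference of -0.50 with groups that overlapped, and with locus sums the difference was -0.55. RPL22A itself had 15.9 to 34.6 in sam1Δ/sam1Δ, 19.6 to 26.7 in sam2Δ/sam2Δ and 20.6 to 46.2 in wildtype, low enough that counting error adds to the ratio. RPL33 had the largest difference between sam2Δ/sam2Δ and wildtype as listed, 0.53, which was 0.28 with locus sums. RPL31 differed by 0.37 and RPL27 by 0.34, and their groups overlapped. With locus sums RPL12 also ceased to overlap between sam2Δ/sam2Δ and wildtype, at a difference of -0.23.

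Copies of a pair encode nearly the same protein. Identity computed from the coding sequences ran from 84.4% for RPL22 to 100% for pairs such as RPL1, RPL2, RPL12, RPL19, RPL20 and RPL23, and for RPL21 and RPL15 each pair differs at 2 residues (98.8% and 99.0% identity).

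Upstream sequence was searched for the letters of factors known to act at these genes, on both strands. In the 300 bases from 250 before to 50 after the first coding base, ACACCCNNA, a Rap1 core, was found at 3.33% of members, against 1.91% of 6007 genes, and GACGC, a Fhl1 core, at 30.0%, against 17.7%. The assembly factor motifs GCGATGAG (PAC) and GAAAAATTT (RRPE) were found at 1 and 3 of the 60 members, against 3.93% and 6.08% of all genes. A further Rap1 core, ACCCNNACA, searched after the values had been seen and over the 500 bases before the start codon, was found at 26 members (43.3%) and at 18 small-subunit genes (31.6%), against 5.46% of 6006 genes. A match describes letters and not a site of binding.

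The stretches around that match are shown for RPL28, the member called in sam2Δ/sam2Δ, and RPL11B, which had the log2FC nearest 0 there, with the ACCCNNACA match in capitals (RefSeq R64, 5′ to 3′ on the strand of the gene).
RPL28, chrVII:310647-310766, plus strand: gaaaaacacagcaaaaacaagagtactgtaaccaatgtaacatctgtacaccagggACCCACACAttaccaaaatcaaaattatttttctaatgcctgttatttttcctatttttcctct
RPL11B, chrVII:649081-649200, minus strand: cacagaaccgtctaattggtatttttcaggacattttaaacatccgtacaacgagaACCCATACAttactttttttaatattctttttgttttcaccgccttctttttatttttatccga
Counted from the start codon, the match lay at -264 in RPL28 and at -237 in RPL11B, and both held it once. RPL21A and RPL21B held none in 500 bases.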

How the data were processed

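RNA was measured in 9 libraries (3 per strain). The authors sequenced stranded poly-A libraries as single 75-base reads, mapped them with TopHat2 2.0.13 to R64-1-1 and, per the labels, normalized with Cuffnorm 2.2.1. The deposited values are a normalized signal per genic region, with the strand setting and the annotation release not given in the sources used here. Steps between low values gave the signal of 1 read as 0.443 to 2.18, which limits the precision of low genes.

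Of the table's identifiers 6048 matched RefSeq R64. Values were analysed as log2(signal + 1) with limma 3.58.1 in R 4.3.3, on the libraries of the compared strains (all 9 for the mutants), keeping genes whose signal reached 10 in 3 or more of the libraries fitted, which all 60 members passed. Calls used the unadjusted and fold limits of the study, and the P-values printed are adjusted over all genes (Benjamini-Hochberg). The fits were tested on simulated data with independent noise in each gene and library. That test does not cover movement shared by many genes of a library. Pair ratios were compared by overlap, with an exact permutation test for 1 pair.

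Members given by name were those called, those with the 5 largest log2FC in each direction of each comparison, those of methylated proteins, the 5 most unequal pairs, the 5 pairs whose balance differed most, and the 5 highest and 5 lowest per coding length, and of other lists the genes called. Members and pairs named outside this rule were chosen after their values were seen, as were the 2 upstream stretches. They were RPL9B, RPL18B, RPL6B, RPL26A, RPL31B, RPL11B, members of shared loci, and the balance of RPL14, RPL17, RPL27 and RPL31. RPL21, RPL8A and RPL33B fall within the rule, by balance or log2FC, but were also described for patterns seen in their values. One member named by this rule, and its pair, are not reported here, though counts and medians include them. The members and lists were chosen with earlier results of these data known. Alternatives were another pseudocount, filter, scaling or set of libraries, a replicate block, each library left out and, added after seeing the data, limma-voom on reads and locus sums.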

Additional observations from a re-analysis of the deposited data

How the results depend on the processing

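For sam1Δ/sam1Δ over wildtype no alternative called a member. For sam2Δ/sam2Δ over wildtype the 1 member called became 0 with no filter, library totals, voom, locus sums or an adjusted P of at most 0.05. It became 2 with all 9 libraries in the fit, beside 692 of all 6139 genes tested. Leaving out each library gave 0 to 5 members. There were 5 without wildtype replicate 2, beside 631 of 6084 genes, and 2 without sam2Δ/sam2Δ replicate 2, beside 675 of 6075. The count was 0 when either of the other wildtype libraries or sam2Δ/sam2Δ replicate 3 was left out. For sam2Δ/sam2Δ over sam1Δ/sam1Δ 0 became 1 with only the 6 mutant libraries, beside 730 of 6107 genes. Leaving out each library gave 0 to 4, with 4 without sam1Δ/sam1Δ replicate 1, beside 812 of 6128 genes. On leaving out each library, protein sums called in sam2Δ/sam2Δ over wildtype ranged from 0 to 2, and over sam1Δ/sam1Δ from 0 to 1. Genes tested singly ranged from 412 of 6078 to 749 of 6075 called over wildtype. Over sam1Δ/sam1Δ they ranged from 442 of 6134 to 812 of 6128. Calls among the fixed lists in sam1Δ/sam1Δ (1) became 0 with a mean signal of at least 50, the replicate block or an adjusted P, 2 with TMM factors or library totals, and 0 to 4 on leaving out each library. Over all genes, 70 of 6109 were called there. This became 51 with a mean signal of at least 50, 51 with the replicate block, 72 with TMM factors and 90 with library totals. Leaving out each library gave 41 to 355 of all genes. In sam2Δ/sam2Δ over wildtype (5) the list calls became 10 with all 9 libraries, 2 with the replicate block, 3 with voom, 0 with an adjusted P, and 1 to 15 on leaving out each library. Over all genes, 601 of 6099 were called there, against 692 with all 9 libraries, 389 with the replicate block and 617 with voom. Leaving out each library gave 412 to 749 of all genes. In sam2Δ/sam2Δ over sam1Δ/sam1Δ (7) the list calls became 0 with an adjusted P and 3 to 12 on leaving out each library. Over all genes, 625 of 6139 were called there, and leaving out each library gave 442 to 812. Pairs whose ratios did not overlap numbered 3 to 10, 2 to 8 and 6 to 15 on leaving out each library in the 3 comparisons, where 2 libraries against 3 separate more easily, and 2 in the second with locus sums.

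The median log2FC in sam1Δ/sam1Δ ran from -0.34 to 0.12 over the libraries left out, and reversed without wildtype replicate 1 (0.12) or sam1Δ/sam1Δ replicate 1 (0.05). On leaving out each library the log2FC there ran from -0.22 to 0.59 for RPL7B and from -0.40 to 0.67 for RPL8A, which was -0.020 with voom. In sam2Δ/sam2Δ over wildtype it ran from -0.18 to 0.32 for RPL20A and from -0.048 to 0.58 for RPL22B. Of 555 refits of the 32 log2FC tracked, 502 kept direction and side, 31 lost the call, 8 gained it and 14 reversed. The cause was not tested.

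Same-numbered libraries did not pair: their correlations ran from -0.85 to 0.69, and only 2 of 9 were highest with their own number. The replicate block changed no member's call (1 in sam2Δ/sam2Δ over wildtype, 0 otherwise), while EGD1, EGD2 and RPS28A lost theirs over wildtype, RPL41B its own in sam1Δ/sam1Δ, and EGD2 and RPP2B theirs over sam1Δ/sam1Δ. The edgeR and DESeq2 alternatives were not run, because regions that share a locus hold split reads. Depth limits RPL22A most, at 15.9 to 46.2.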
